A study of Mus musculus with 4 samples.

Results

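The transcripts of p53 (Trp53) and 9 of its damage-response targets (Cdkn1a, Mdm2, Ccng1, Trp53inp1, Phlda3, Sesn2, Zmat3, Aen and Gdf15) were followed in mouse recruited alveolar macrophages after bleomycin, a drug that breaks DNA. The members were the rows of the count table whose symbol was one of these 10 names. All 10 were found among the 16360 symbols, and all 10 passed the filter on low counts, which left 13575 genes tested. The macrophages came from males with 2 copies of the R213G variant of EC-SOD, the secreted superoxide dismutase encoded by Sod3 (R213G, 2 libraries), and from wild-type males (WT, 2 libraries). The labels give 1 strain for both genotypes, spelled CD57/Bl6, and an age of 8 to 10 weeks. Every mouse had received bleomycin by the intratracheal route (100 µl of a 1 U/ml solution). After 7 days the cells were sorted on high CD64, low Siglec-F and high CD11b. No untreated library was part of the comparison, so the values are levels 7 days after injury and not changes from a baseline. The labels do not say whether a library came from 1 mouse or from pooled mice, so the p-values rest on the spread over these libraries alone, which may be technical.

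p53 is a transcription factor that is kept scarce by the ubiquitin ligase Mdm2 and is stabilised as a protein when DNA breaks activate the kinases Atm and Chek2. It then binds pairs of a 10-base motif near its target genes and raises their transcription. The targets halt the cell cycle, feed back on p53, shift metabolism and autophagy, or favour cell death. Because p53 is controlled mainly as a protein, the transcripts of its targets are the usual readout of its activity in RNA data. Sesn2 and Gdf15 are also targets of ATF4, the factor of the integrated stress response.

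Total counts per library ranged from 33488569 to 35176210. The 10 members together took between 0.0815% and 0.0875% of the counts of a library. R213G replicate 1 had the fewest symbols with a count, 13584, against 14598 to 15194 in the other libraries. The genes of the sort gate were read as transcripts, with no unsorted library to set them against. Itgam, which encodes CD11b, averaged 790 CPM (counts per 1e6 after normalization) in R213G and 823 CPM in WT. Fcgr1, which encodes CD64, averaged 250.2 CPM in R213G, against 252 CPM in WT. Siglecf was lower than Itgam and Fcgr1, at 11.9 CPM in R213G, against 10.8 CPM in WT. Among other cell types, the T cell gene Cd3e, the 1 tested of 6 lymphocyte markers, had at most 2.20 CPM and was at 0 in replicate 2 of both genotypes. The 6 dendritic cell markers, all tested, summed to 136 and 44.1 CPM in R213G replicates 1 and 2 and to 153 and 39.5 CPM in WT replicates 1 and 2. The 4 tested of 6 epithelial markers summed to 221 and 104 CPM in R213G and to 166 and 98.3 CPM in WT. For the 4 tested of 7 neutrophil markers the sums were 136 and 159 CPM in R213G and 187 and 180 CPM in WT. Mmp8 and Csf3r made up most of these sums, and Cxcr2 had at most 1.02 CPM. For the 3 tested of 6 stromal and endothelial markers the sums were 92.2 and 138 CPM in R213G and 131 and 114 CPM in WT. Vwf alone was at 90.5 and 136 CPM in R213G and at 129 and 110 CPM in WT. Pecam1 had at most 3.06 CPM and Cdh5 at most 1.08 CPM. The 8 markers of resident alveolar macrophages, led by Itgax, summed to 1088 and 1194 CPM in R213G and to 1119 and 1435 CPM in WT. Itgax alone was at 834 and 912 CPM in R213G and at 913 and 859 CPM in WT. Chil3 was at 198 and 177 CPM in R213G and at 134 and 504 CPM in WT.

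The sequences shown are the promoter windows of members that hold the p53 motif, since p53 acts through it. Windows of 300 bases, from 250 before to 50 after a transcription start, were taken from RefSeq on GRCm38.p6. A window was listed for 8 of the 10 members, with 2 each for Cdkn1a, Aen and Gdf15. The p53 decamer, a 10-base motif whose consensus is the same on both strands, was found in a window of 5 members: Cdkn1a, Ccng1, Mdm2, Trp53 and Aen. It lay in 8.36% of all 32851 windows in the table, and in at least 1 window of 8.11% of the tested genes that had one. Pairs of 2 decamers end to end, with at most 2 mismatches in all, were found for 2 members, Cdkn1a and Ccng1. Such pairs lay in 0.326% of all windows, and in at least 1 window of 0.461% of the tested genes that had one. A looser definition, which was tried first and allowed up to 13 bases between the decamers, matched 4.09% of all windows and the same 2 members. Capitals mark the decamers, and the runs of 20 capitals are the pairs, each with 1 mismatch. The first line is the window of the upstream Cdkn1a start at chr17:29090729-29091028 (plus strand), and the second is that of Ccng1 at chr11:40755237-40755536 (minus strand).
Cdkn1a: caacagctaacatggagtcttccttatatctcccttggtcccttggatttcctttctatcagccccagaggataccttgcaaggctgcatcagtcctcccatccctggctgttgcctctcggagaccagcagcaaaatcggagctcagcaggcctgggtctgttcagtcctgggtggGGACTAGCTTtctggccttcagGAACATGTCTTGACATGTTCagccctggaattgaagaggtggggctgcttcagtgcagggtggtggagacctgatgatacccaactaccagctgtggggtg
Ccng1: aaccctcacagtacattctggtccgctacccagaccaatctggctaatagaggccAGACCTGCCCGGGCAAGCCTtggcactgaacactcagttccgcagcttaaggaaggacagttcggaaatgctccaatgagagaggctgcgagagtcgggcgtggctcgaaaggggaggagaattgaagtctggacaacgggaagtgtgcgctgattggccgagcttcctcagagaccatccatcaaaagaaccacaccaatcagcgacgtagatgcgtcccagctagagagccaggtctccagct

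The pair began at position -51 from the upstream Cdkn1a start and ended 2822 bases before the downstream start, whose own window held no decamer. In Ccng1 the pair began at position -195. The other 3 members with a decamer held 1 each, shown with 20 bases on either side. For Mdm2 it lay at chr10:117710915-117710964 (minus strand), for Trp53 at chr11:69580264-69580313 (plus strand) and for Aen at chr7:78895917-78895966 (plus strand).
Mdm2: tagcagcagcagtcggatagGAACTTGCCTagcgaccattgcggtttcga
Trp53: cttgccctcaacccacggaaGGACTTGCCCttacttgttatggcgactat
Aen: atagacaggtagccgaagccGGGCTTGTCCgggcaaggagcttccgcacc

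The decamer began at position -186 from the Mdm2 start and at position -75 from the Trp53 start. The Aen decamer fell in both of its windows, at position -121 from one start and at position 11 from the other. The windows of Phlda3, Sesn2 and Gdf15 did not hold the motif, which says only that these letters are not in these stretches. A match is a description of the sequence, and binding was not measured. In GENCODE on GRCm38, the gene bodies are chr17:29090976-29100727 for Cdkn1a, chr11:40748552-40755311 for Ccng1, chr10:117688875-117710758 for Mdm2, chr11:69580359-69591873 for Trp53 and chr7:78895854-78911209 for Aen. The other members are Trp53inp1 at chr4:11156431-11174379, Sesn2 at chr4:132492032-132510501, Phlda3 at chr1:135766119-135769136, Zmat3 at chr3:32334792-32366014 and Gdf15 at chr8:70629393-70632456.

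The members differed widely in level. Per kilobase of exon, so that genes of different length can be set side by side, Cdkn1a was highest in all 4 libraries and Ccng1 second in all 4. Cdkn1a, which encodes the cyclin-dependent kinase inhibitor p21, was at 67.0 and 56.3 CPM per kb in R213G replicates 1 and 2 and at 65.2 and 60.9 CPM per kb in WT replicates 1 and 2. Ccng1, which encodes cyclin G1 and is linked to feedback on Mdm2, was at 62.7 and 53.1 CPM per kb in R213G and at 59.3 and 53.4 CPM per kb in WT. The windows of Cdkn1a and Ccng1 held the paired decamers, but a link between motif and level was not tested. The ranges of Cdkn1a and Ccng1 over the 4 libraries overlapped, and both stood apart from all others. Their distance depended on the length used. Divided by the longest transcript instead of all exons, Cdkn1a averaged 106.5 CPM per kb and Ccng1 57.1 as before, and the ranges no longer overlapped: the lowest library of Cdkn1a was at 96.2 and the highest of Ccng1 at 62.7.

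A middle tier of 5 members held Mdm2 (mean of the 4 libraries 20.5 CPM per kb), Gdf15 (20.1), Trp53 (19.3), Phlda3 (17.1) and Sesn2 (16.4). Each neighbour in this order overlapped the next over the libraries, and the order inside the tier changed from library to library. Mdm2, for example, was the fifth member in both R213G libraries but the fourth and the third in WT replicates 1 and 2. The low tier was Trp53inp1 (6.49 CPM per kb), Zmat3 (4.48) and Aen (4.42), again with overlapping neighbours, and it stood apart from the middle tier: the lowest library of Sesn2 was at 15.1 CPM per kb and the highest of Trp53inp1 at 7.40. Among 13264 tested genes with an exon length, Cdkn1a and Ccng1 were at percentiles 95.2 and 94.6, the middle tier between 79.2 and 83.1, and Zmat3 and Aen at 48.9 and 48.6. With the longest transcript the order of the 10 members by mean was the same, but the mean of Mdm2 was 33.1 CPM per kb and not 20.5.

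**Figure D1:**
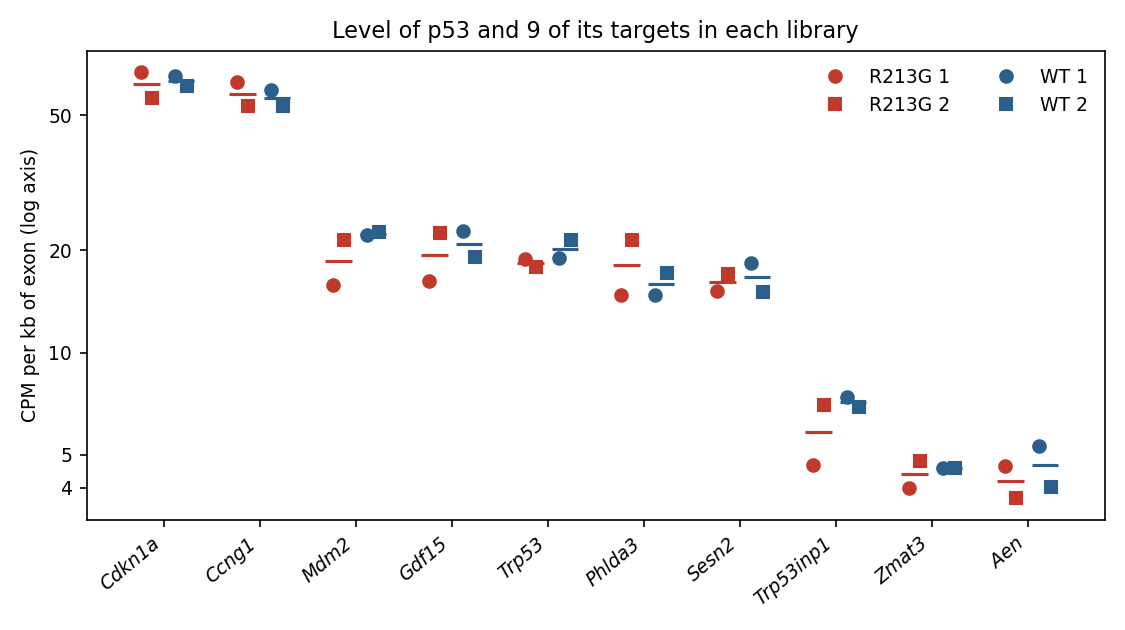
Level of each member in each library, in CPM per kb of exon on a log axis, with R213G in red and WT in blue. Circles are replicate 1, squares replicate 2 and short lines the mean of the 2 libraries of a genotype. Cdkn1a and Ccng1 sit between 53.1 and 67.0, 5 members lie between 14.8 and 22.7, and 3 lie between 3.72 and 7.40.

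The question of the comparison was whether the level of the p53 response differed between R213G and WT macrophages. The edgeR quasi-likelihood test, adjusted by Benjamini-Hochberg over all 13575 genes, called 0 of the 10 members in either direction at a threshold of 0.05, and 0 genes (0%) in all. Before adjustment, 0 members and 302 genes (2.22%) had a p under 0.05. The smallest adjusted p of a member was 0.9996. DESeq2 called 0 members and 1 gene in all, and limma voom 0 of either. The log2 fold changes, R213G minus WT, were negative for 8 members and positive for 2, against 50.9% negative over all genes tested. Their median was -0.08, beside -0.01 over all genes. It was 0.02 without WT replicate 1, and between -0.13 and -0.05 without each of the other libraries. For 2 members, Trp53 and Mdm2, both R213G libraries lay below both WT libraries. Over all genes, 15.2% were lower in R213G in this way, and 28.9% did not overlap in one direction or the other.

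Trp53 itself, the gene of the factor, was measured at 76.3 and 72.3 CPM in R213G replicates 1 and 2 and at 76.8 and 86.8 CPM in WT replicates 1 and 2. Both R213G libraries lay under WT replicate 1, and WT replicate 2 was the highest. The log2 fold change was -0.14 ± 0.14 (SE, unadjusted p = 0.345 in the edgeR fit). It was -0.05 without WT replicate 2 and -0.22 without WT replicate 1. GENCODE annotates a pseudogene copy, Trp53-ps, and how reads shared with it were counted is not given in the sources used here, so the level of Trp53 is uncertain to that degree.

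Feedback on p53 is carried by Mdm2 and Ccng1. Mdm2 was at 80.6 and 109 CPM in R213G and at 112 and 115 CPM in WT. R213G replicate 1 was low and the other 3 libraries lay close together. Its counts there were 2752, with an exact Poisson interval of 2650 to 2857 that covers counting error only, against 3784, 3717 and 3940 in R213G replicate 2, WT replicate 1 and WT replicate 2. The log2 fold change was -0.26 ± 0.16 (SE, unadjusted p = 0.129 in the edgeR fit) and became -0.06 without R213G replicate 1. Without R213G replicate 2 it was -0.50 instead. Mdm2 counts per Trp53 count were 1.06 and 1.503 in R213G, against 1.47 and 1.32 in WT. This ratio was lowest in R213G replicate 1, but it uses the same Mdm2 counts and is not a separate observation. Ccng1 was at 220.2 and 186 CPM in R213G and at 208 and 188 CPM in WT. Its genotypes overlapped, with replicate 1 the higher library of each, and the log2 fold change was 0.04 ± 0.13 (SE, unadjusted p = 0.770 in the edgeR fit).

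Cell cycle arrest was represented by Cdkn1a, the most abundant member. It was measured at 238 and 200.2 CPM in R213G and at 232 and 216 CPM in WT. The R213G libraries lay outside the WT pair on both sides, and the log2 fold change was -0.03 ± 0.13 (SE, unadjusted p = 0.812 in the edgeR fit). Cdkn1a counts per Mdm2 count were 2.95 in R213G replicate 1, against 1.84, 2.06 and 1.88 in R213G replicate 2, WT replicate 1 and WT replicate 2. The library low in Mdm2 was therefore not low in Cdkn1a. In GENCODE, AC167363.2 on the opposite strand shares exon bases with Cdkn1a. Libraries were directional, but the strand setting of the counting is not given in the sources used here.

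Metabolic restraint and autophagy were represented by Sesn2, Trp53inp1 and Phlda3. Sestrin 2, encoded by Sesn2, restrains the growth kinase complex mTORC1. Its transcript was at 52.9 and 59.2 CPM in R213G and at 64.0 and 52.3 CPM in WT, with both R213G libraries inside the WT range and a log2 fold change of -0.05 ± 0.16. Trp53inp1, a partner of p53 that also acts in autophagy, was at 30.1 and 45.2 CPM in R213G and at 47.9 and 44.8 CPM in WT. As for Mdm2, R213G replicate 1 stood apart below 3 close libraries. The log2 fold change of Trp53inp1, -0.30 ± 0.21, was the farthest from 0 of the 10 members and did not pass (unadjusted p = 0.185 in the edgeR fit). It was -0.03 without R213G replicate 1. Phlda3, an inhibitor of the survival kinase Akt, was at 23.1 and 33.5 CPM in R213G and at 23.0 and 26.8 CPM in WT. R213G replicate 2 was the high library, and the log2 fold change of 0.18 ± 0.24 became -0.11 without it.

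Zmat3, Aen and Gdf15 complete the set. Zmat3, an RNA-binding zinc finger protein, was at 45.7 and 54.8 CPM in R213G and at 52.1 and 52.1 CPM in WT. The WT libraries were alike and lay between the R213G libraries, with a log2 fold change of -0.05 ± 0.16. Aen, a nuclease that takes part in apoptosis, was at 26.9 and 21.6 CPM in R213G and at 30.8 and 23.2 CPM in WT. Replicate 1 was the higher library of each genotype, and the log2 fold change was -0.15 ± 0.23. Gdf15, a secreted stress cytokine of the TGF-beta superfamily, was at 30.1 and 41.6 CPM in R213G and at 42.1 and 35.3 CPM in WT. R213G replicate 1 was the lowest library, and the log2 fold change of -0.11 ± 0.21 became 0.11 without it.

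Unadjusted p-values of Sesn2, Phlda3, Zmat3, Aen and Gdf15 lay between 0.457 and 0.758 in the edgeR fit. The intervals give the range of differences compatible with the fit of each gene, without adjustment over all genes. They do not give the size of difference that the adjusted calls could have missed. The 95% interval of the edgeR fit, for each gene on its own, ran from 0.803 to 1.19-fold for Cdkn1a, from 0.839 to 1.26-fold for Ccng1, from 0.651 to 1.07-fold for Mdm2 and from 0.731 to 1.13-fold for Trp53. The lowest bound of any member was 0.588-fold, for Trp53inp1, and the highest was 1.64-fold, for Phlda3. All of these intervals include no difference. In sorted cells measured in bulk, fewer cells that carry a transcript and less of it per cell cannot be told apart.

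**Figure D2:**
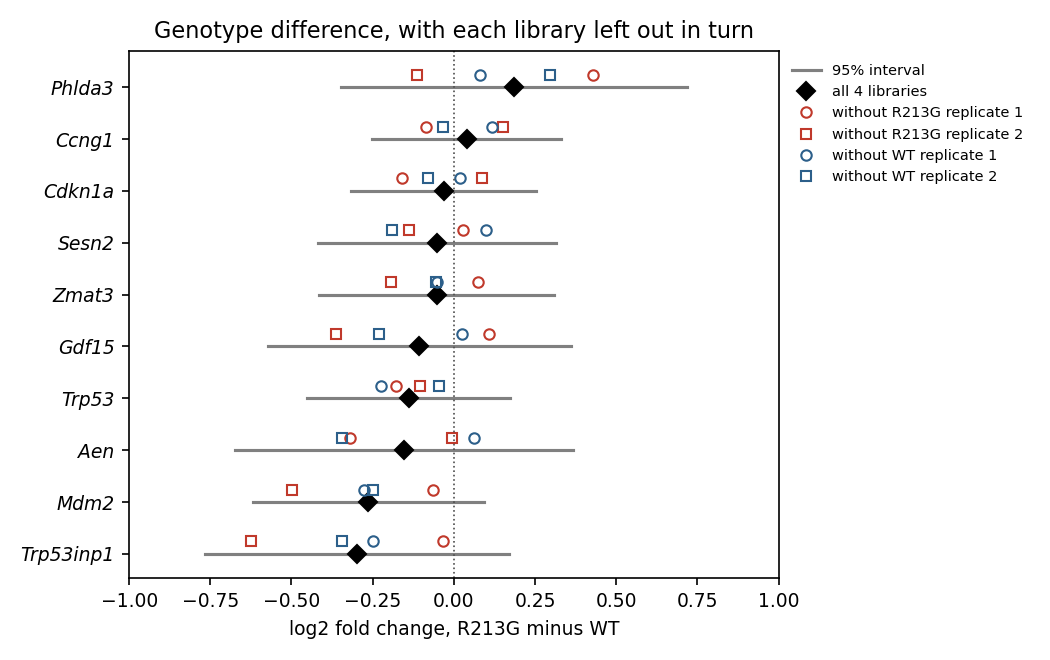
Log2 fold change of each member, R213G minus WT, with all 4 libraries (diamonds, with 95% intervals as grey lines) and with each library left out in turn (open symbols, red for R213G and blue for WT libraries). All 10 intervals cross 0, and Trp53inp1 is at -0.30 with all libraries, at -0.03 when R213G replicate 1 is left out and at -0.63 when R213G replicate 2 is.

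For all 10 members, the larger of the within-genotype gaps in log2 CPM exceeded the distance between the genotype means. The same held for 83.3% of all genes tested. The smaller gap did not always exceed it: for Mdm2 the WT gap was 0.03 and the genotype difference -0.28. The median gap between the R213G libraries was 0.29 in log2 CPM over the members and 0.32 over all genes tested. Between the WT libraries it was 0.16 over the members and 0.23 over all genes. The members did not vary as 1 block. In R213G replicate 1, 4 members (Mdm2, Trp53inp1, Zmat3 and Gdf15) were lower than in all other libraries, and 2 (Cdkn1a and Ccng1) were higher than in all others. Over all genes tested, 36.5% were lowest and 31.2% highest in that library. The low number of detected genes in R213G replicate 1 goes with these values, and its part in them was not tested.

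The replicate number went with the level in the same direction in both genotypes for 5 of the 10 members, beside 52.0% of all genes tested, so the members' share is near that of all genes. In log2 CPM, replicate 2 minus replicate 1 was -0.32 in R213G and -0.41 in WT for Aen, -0.25 and -0.10 for Cdkn1a, and -0.24 and -0.15 for Ccng1. For Phlda3 it was 0.54 in R213G and 0.22 in WT, and for Mdm2 0.43 in R213G and 0.03 in WT. Of the 6 dendritic cell markers, 4 (Flt3, Zbtb46, Ccr7 and Cd209a) were higher in replicate 1 of both genotypes. Xcr1 was at 0 in replicate 1 of both, and Clec9a was at 0 in R213G replicate 1 but higher in WT replicate 1. Of the 4 epithelial markers, Epcam and Cdh1 were higher in replicate 1 of both genotypes, and Sftpb and Scgb1a1 were lower. The larger sums in replicate 1 thus came from the abundant genes of each list, such as Cdh1, which encodes E-cadherin, at 187 and 84.6 CPM in R213G replicates 1 and 2 and at 149.8 and 86.8 CPM in WT replicates 1 and 2. The part of other cells in the values of the members was not tested. The labels do not say that a replicate number marks a shared day or batch. With 4 libraries many genes share a profile: the genes nearest to Cdkn1a in centred log2 CPM were Alg1, N6amt1 and Klhl6, with root mean square differences of 0.0093, 0.0094 and 0.0099, and 1537 of 9689 genes with a mean of at least 5 CPM lay within 0.1.

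**Figure D3:**
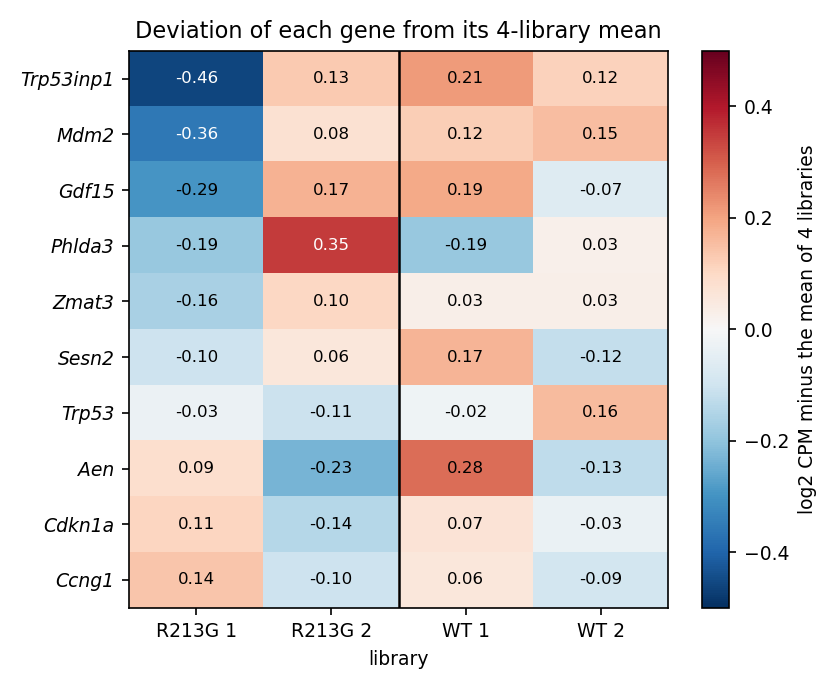
Deviation of each member in each library from its mean over the 4 libraries, in log2 CPM (red above, blue below, with the value in each cell). Trp53inp1, Mdm2 and Gdf15 are lowest in R213G replicate 1, at -0.46, -0.36 and -0.29, where Cdkn1a and Ccng1 are above their means, at 0.11 and 0.14.

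Upstream of p53, 15 activators and brakes were tested and 0 passed, with 6 positive and 9 negative log2 fold changes. Their median was -0.08, between -0.13 and -0.05 when single libraries were left out. Activators and brakes are pooled in this median, so it has no direction for p53 activity. Atm, the kinase that senses double-strand breaks, was at 25.7 and 33.0 CPM in R213G, against 33.0 and 42.7 CPM in WT (log2 fold change -0.37 ± 0.21). Hipk2, a kinase that phosphorylates p53, was at 66.3 and 96.4 CPM in R213G, against 110.4 and 95.3 CPM in WT (-0.34 ± 0.18). The acetyltransferase Ep300, the most abundant of the group, was at 193 and 231 CPM in R213G, against 260.3 and 234 CPM in WT (-0.22 ± 0.13). For Atm, Hipk2 and Ep300, R213G replicate 1 was the lowest library, as it was for 36.5% of all genes tested. The checkpoint kinases went the other way. Chek2 was at 19.5 and 31.0 CPM in R213G, against 16.6 and 20.5 CPM in WT (0.44 ± 0.28). Chek1 was at 7.91 and 6.70 CPM in R213G, against 2.81 and 6.41 CPM in WT (0.65 ± 0.46). Cdkn2a, whose Arf product blocks Mdm2, was low, at 0.843 CPM in R213G, against 0.778 CPM in WT.

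Outside the 10 members, 39 further p53 targets were listed by role, 35 were tested and 0 passed. Rprm, Tnfrsf10b, Eda2r and Gls2 were not analysed here, since they had no row or too few counts. Of these, 20 log2 fold changes were positive and 15 negative, with a median of 0.05. Leaving out R213G replicate 2 brought that median to -0.10, and leaving out WT replicate 1 to -0.06. Both R213G libraries lay on the same side of the WT pair for 9 tested targets (25.7%), beside 28.9% of all genes tested. Among 9 arrest genes, 7 were positive (median 0.09, but -0.14 without R213G replicate 2 and -0.21 without WT replicate 1). Ckap2, a spindle protein, was at 18.8 and 22.2 CPM in R213G, against 12.3 and 18.5 CPM in WT (0.41 ± 0.27), Gadd45a at 8.36 CPM in R213G, against 11.8 CPM in WT (-0.49 ± 0.39), and Plk3 at 56.2 CPM in R213G, against 54.4 CPM in WT (0.05 ± 0.18). Among 9 apoptosis genes, 5 were positive (median 0.01, but -0.04 without R213G replicate 2 and 0.11 without WT replicate 2). Bax, which opens the mitochondrial outer membrane, was at 88.1 and 93.4 CPM in R213G and at 84.3 and 96.0 CPM in WT, with a log2 fold change of 0.01 ± 0.14. Apaf1, the scaffold of the apoptosome, averaged 80.6 CPM in R213G, against 88.5 CPM in WT (-0.13 ± 0.13), and Siva1 9.29 CPM in R213G, against 12.95 CPM in WT (-0.48 ± 0.42).

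Repair targets were split, with 4 positive and 4 negative of 8. Their median was -0.07, but 0.10 without WT replicate 1, 0.06 without WT replicate 2, -0.15 without R213G replicate 1 and -0.20 under the filter at a mean of 5 CPM. Pcna, the sliding clamp of DNA polymerases, was at 86.3 and 88.3 CPM in R213G, against 62.4 and 80.1 CPM in WT (0.29 ± 0.16, unadjusted p = 0.0900 in the edgeR fit). Fancc, of the interstrand crosslink repair pathway, was at 8.47 and 3.76 CPM in R213G, against 2.39 and 4.90 CPM in WT (0.73 ± 0.56). Metabolism and autophagy targets had 4 positive of 9. Their median was -0.09, but 0.03 without R213G replicate 1, 0.003 without WT replicate 2, -0.04 without WT replicate 1 and -0.02 under that filter. Tigar, a phosphatase that restrains glycolysis, was at 31.6 and 28.5 CPM in R213G, against 22.6 and 27.2 CPM in WT (0.27 ± 0.21). Trp53inp2, the relative of Trp53inp1, was at 129.8 and 206 CPM in R213G, against 187 and 197 CPM in WT (-0.20 ± 0.19), with R213G replicate 1 the low library for both relatives. The lysosomal peptidase Tpp1, the most abundant of these targets, averaged 567 CPM in R213G, against 614 CPM in WT (-0.11 ± 0.13).

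**Figure D4:**
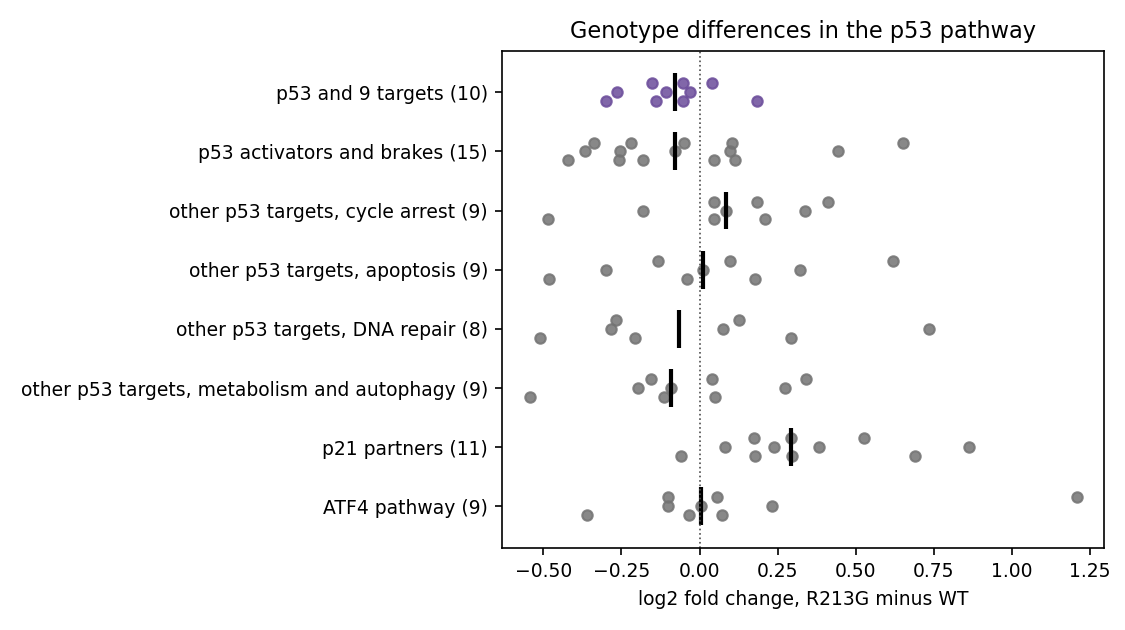
Log2 fold change, R213G minus WT, of each tested gene of the p53 pathway lists (points, with the number tested in brackets) and the median of each list (black lines). The medians of p53, its regulators and its targets lie between -0.09 and 0.09 with all 4 libraries, and that of the p21 partners is at 0.29. The medians of the 4 lists of other targets change sign when single libraries are left out.

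The cyclins and cyclin-dependent kinases that p21 binds had 10 of 11 log2 fold changes positive and a median of 0.29, and 0 passed. Over all genes tested, 50.9% were negative. Cdk1, the mitotic kinase, was at 49.3 and 40.87 CPM in R213G, against 21.6 and 40.83 CPM in WT (0.53 ± 0.27), so WT replicate 1 stood apart below the rest. Cdk4 was at 135 and 133 CPM in R213G, against 121 and 117 CPM in WT (0.17 ± 0.12). Ccne1 was at 25.1 and 16.8 CPM in R213G, against 9.17 and 13.8 CPM in WT (0.86 ± 0.31). Its unadjusted p was 0.0215 in the edgeR fit, where 2.22% of all genes tested were under 0.05. The mean log2 CPM of these 11 genes was 5.63 and 5.56 in R213G, against 5.05 and 5.39 in WT. Their median log2 fold change was 0.14 without WT replicate 1 and 0.19 without R213G replicate 1. Cdkn1a followed this order of libraries only in part. R213G replicate 1 was the highest library for both. WT replicate 1, the lowest for the partners, was the library with the second highest Cdkn1a.

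Because Sesn2 and Gdf15 are also ATF4 targets, 9 genes of that pathway were read beside them. Of these, 0 passed, 5 were positive and the median was 0.00, but 0.18 without WT replicate 1 and -0.16 without WT replicate 2. Chac1, a glutathione-degrading enzyme, was at 2.23 and 2.24 CPM in R213G, against 1.03 and 0.903 CPM in WT (1.21 ± 0.72). Cebpb, the most abundant of them, averaged 684 ± 156 CPM in R213G, against 582 ± 43.0 CPM in WT (SD, n = 2 each; 0.23 ± 0.15). Atf4 itself averaged 159 CPM in R213G, against 151 CPM in WT (0.07 ± 0.13).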

How the data were processed

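Poly(A) RNA of sorted macrophages was sequenced in 4 libraries, 2 per genotype. The authors' deposited table holds unnormalized counts for each symbol and library. STAR 2.5.1b, featureCounts, Subread 1.4.4 and GRCm38 are named in the submitters' processing notes. The sources used here do not give the annotation, the strand setting or the treatment of multi-mapped reads. The description field of each sample names its column, and its title gives genotype and replicate number. No pair of libraries of a genotype agreed within sampling noise (chi-square per degree of freedom at least 31.4).

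R213G was compared with WT by the edgeR 4.0.16 quasi-likelihood test in its newer form (R 4.3.3) on all 13575 genes that passed filterByExpr, with TMM normalization, robust estimation, no covariate, Benjamini-Hochberg adjustment and a threshold of 0.05. The fit had 2 residual degrees of freedom. The p-values and intervals also drew on the spread over all genes tested, which raised the degrees of freedom they used. The smallest two-sided p of an exact permutation test is 0.333 in this design, so none was run. CPM are counts per 1e6 of the normalized library size. The SE is the size of the log2 fold change divided by the square root of F. Log2 CPM used a prior count of 2. Exon lengths and positions came from GENCODE M21, matched by symbol for 97.7% of the tested genes. The scripts were tested on simulated data. Alternatives were other scalings (DESeq2 size factors, upper quartile), filters (none, a mean of at least 5 CPM) and tests (DESeq2 1.42.0, limma 3.58.1 voom, the legacy edgeR form), a replicate block, and leaving out each library.

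The members and lists were chosen with earlier results of these data known. Members are given in full. Of each other pathway list, the 2 genes of smallest unadjusted p and the most abundant are named, and of each marker list the most abundant gene is eligible. The genes of the sort gate, Fcgr1, Itgam and Siglecf, are named as well. Cdkn2a, Chek1, Chek2 and Atf4 were named outside this rule, after their values were seen. So were Chil3 and the further dendritic cell, epithelial, neutrophil and endothelial markers that are named. The motif definition was chosen after the windows had been seen: pairs with up to 13 bases between the decamers were searched first, and end-to-end pairs replaced them because the looser search had marked spaced decamers in Cdkn1a in place of the adjacent pair.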

Additional observations from a re-analysis of the deposited data

How the results depend on the processing

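With 2 libraries per genotype the precision is set by the spread between libraries and not by depth. The count of members called was 0 under every alternative run. The count of genes called over all genes was 0 except for 1 by DESeq2, and it ranged from 0 to 2 when each library was left out in turn. The number of genes with an unadjusted p under 0.05, 302 in the fit reported, was 201 by limma voom, 150 under the filter at 5 CPM, and 71 to 1960 with a library left out. The 1960 came without R213G replicate 2, where Mdm2 and Trp53inp1 also had an unadjusted p of 0.00572 and 0.00919 in the edgeR fit, and the smallest adjusted p of a member was 0.287; the comparison then rests on R213G replicate 1 as the lone library of its genotype, assumed to vary like the others. The 71 came without WT replicate 1. No member changed direction under another scaling, filter or test. Leaving out a library turned 11 log2 fold changes of 7 members, whose ranges over these 4 fits were -0.16 to 0.086 for Cdkn1a, -0.085 to 0.15 for Ccng1, -0.11 to 0.43 for Phlda3, -0.19 to 0.10 for Sesn2, -0.19 to 0.074 for Zmat3, -0.35 to 0.062 for Aen and -0.36 to 0.11 for Gdf15. The sign turned without R213G replicate 1 for Ccng1, Gdf15, Sesn2 and Zmat3, without R213G replicate 2 for Cdkn1a and Phlda3, without WT replicate 1 for Aen, Cdkn1a, Gdf15 and Sesn2, and without WT replicate 2 for Ccng1. Trp53 kept its sign, from -0.22 to -0.05. The cause was not tested. The median of the members ranged from -0.13 to 0.02 over these fits. With the replicate block 0 genes were called, 298 had an unadjusted p under 0.05 and no member changed direction. Same-numbered libraries deviated together only weakly (correlation 0.09 over 13575 genes), so the numbers were not taken as pairs.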
